A study of Homo sapiens with 6 samples.

Results

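The clustered replication-dependent histone genes were followed in undifferentiated human embryonic stem cells with and without S6K1, the ribosomal protein S6 kinase encoded by RPS6KB1. Members were the rows of the count table whose symbol had the form of a clustered histone gene (HIST1 to HIST4 symbols of the H1, H2A, H2B, H3 and H4 classes, or the current names built on H1, H2AC, H2BC, H3C and H4C). There were 89 members among 61155 genes, all under the older HIST symbols. By their symbols in the table they comprised 8 genes of the H1 class, 23 of H2A, 25 of H2B, 17 of H3 and 16 of H4, and 71 of them were annotated as protein-coding and 18 as pseudogenes. HIST1H1PS2, counted with H1 by this symbol and at 0 in all libraries, is an H3 pseudogene (H3P26) in RefSeq.

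The study asked what loss of S6K1 does to human cells on the way to dorsal forebrain organoids, and its bulk RNA sequencing compared 3 wild-type (WT) with 3 S6K1-/- libraries. Both groups were the established human embryonic stem cell line H7, grown without feeder cells, and neither received a differentiation treatment. The S6K1-/- cells were a single clone (clone #1) made by CRISPR/Cas9 with guides against exons 9 and 11 of RPS6KB1, so the difference between clone and parent line cannot be told apart from the difference in genotype. The labels call the genotype a knockdown and give a time of week 5, whereas the methods describe undifferentiated knockout cells. No label ties the libraries of a group to separate cultures, so the p-values below measure the spread between these libraries, which may be technical.

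Replication-dependent histone genes supply the core histones H2A, H2B, H3 and H4 and the linker histone H1 that package newly made DNA, and their mRNAs accumulate in S phase. These mRNAs usually end in a short stem-loop in place of a poly(A) tail. The stem-loop is bound by SLBP, which acts in 3′ end formation, export, translation and timed decay of the message. Some of these genes also make polyadenylated mRNA, mainly in cells that are leaving the cycle. The libraries here were made with a kit that captures poly(A) RNA, so the counts below describe the polyadenylated or otherwise captured part of histone RNA and not its total.

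The libraries held 21896698 to 24473013 counts. RPS6KB1 had 831, 791 and 777 counts in WT and 464, 464 and 438 in S6K1-/- libraries, a log2 fold change of -0.75 (SE 0.0570, edgeR quasi-likelihood test, adjusted p = 2.52e-07). The guides were against exons 9 and 11 and the counts cover the gene as a whole, so which part was lost was not examined. The pluripotency markers POU5F1 (181 ± 3.70 CPM, that is counts scaled to a common library size, in WT and 177 ± 16.5 in S6K1-/- libraries, SD, n = 3 each) and SOX2 (300.2 ± 9.70 and 291 ± 10.9 CPM) were high in both groups. Of the 10 pluripotency markers 1 was lower and 0 were higher at an adjusted p under 0.001 (edgeR, beside 2.54% and 1.42% of all genes tested), the DNA methyltransferase gene DNMT3B at 1410 ± 16.2 and 1105 ± 48.5 CPM. In 5 of the 10 all S6K1-/- libraries lay below WT and in 1 all above, beside 16.7% and 14.0% of all genes tested, and their summed level was 6731 ± 71.8 and 6224 ± 49.4 CPM. Of the 8 mesoderm and endoderm markers 3 were tested and 0 passed 0.001 (edgeR, with 2 lower and 1 higher at an unadjusted p under 0.05, beside 14.5% and 11.8% of all genes tested), the lowest p being that of FOXA2 (log2 fold change -0.88, edgeR adjusted p = 0.00109), and their summed level was 18.4 ± 1.84 and 17.3 ± 0.489 CPM. Markers of neural organoids were low by comparison. NEUROD6 and TBR1 were at 0 in all libraries, whereas PAX6 was higher (4.46 ± 0.447 CPM in WT and 7.57 ± 0.728 CPM in S6K1-/- libraries, edgeR adjusted p = 2.69e-04), DCX was lower (11.1 ± 0.650 and 7.64 ± 0.410 CPM, edgeR adjusted p = 4.91e-04) and SOX1 was at 0.263 ± 0.0196 and 0.647 ± 0.0845 CPM (edgeR adjusted p = 0.0174). The part of these marker genes in the histone values was not tested. Mitochondrial genes took 8.54% to 9.74% of the counts.

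To show what a mature histone message is expected to end with, the stem-loop was searched in the reference genome (GRCh38) within 100 bases after the stop codon. The search took a stem of 6 paired bases around a loop of 4 bases. The stem had to open with the form GGNNCT and the loop had to be TTTN, where N is any base. The other letters were set in advance, so only the N letters could differ between members. It was found in 66 of the 71 protein-coding members, 23 to 68 bases after the stop codon. It was not found in HIST1H3E, HIST1H2BI, HIST1H2AG, HIST1H2AK and HIST1H4L, which says only that these letters were not in this window, and the 18 pseudogenes have no annotated stop codon and were not searched. The stem-loop divided by class. All 14 H4 members with a match had a stem that opens with GGCCCT, and all 52 members of the other classes had a stem that opens with GGCTCT. The stem-loops of the members that the results turn on are given here in DNA letters, 5′ to 3′, with the stem and loop in capitals and 5 flanking bases on each side.
HIST1H2AC (chr6:26124664-26124689, + strand): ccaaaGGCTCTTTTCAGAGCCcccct
HIST1H2BC (chr6:26123467-26123492, - strand): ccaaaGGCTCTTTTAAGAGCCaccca
HIST1H2BJ (chr6:27132316-27132341, - strand): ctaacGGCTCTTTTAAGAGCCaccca
HIST1H2BH (chr6:26252050-26252075, + strand): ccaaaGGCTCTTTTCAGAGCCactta
HIST1H1C (chr6:26055739-26055764, - strand): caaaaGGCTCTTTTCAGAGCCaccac
HIST1H1A (chr6:26017032-26017057, - strand): ccaacGGCTCTTTTAAGAGCCaccta
HIST1H4I (chr6:27139649-27139674, + strand): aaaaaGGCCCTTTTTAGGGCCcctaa
Among these 7 genes only HIST1H4I, the H4 gene, carries the GGCCCT form. HIST1H2AC and HIST1H2BC have the same 5 bases before the stem and differ in the loop and in the bases after it.

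The annotation divided the members with a stem-loop in another way. In 49 of them every annotated transcript ended within 18 bases of the stem-loop, which is the usual form of these genes. In the other 17 at least 1 annotated transcript ended 430 bases or more past it. HIST1H2AC was one of the 17, with 3 annotated transcripts, 2 of them spliced, and the farthest end 14432 bases past the stem-loop.

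Little of each library came from histone genes. The members together took 1491 to 1858 counts per library, or 0.00667% to 0.00759% of the library. Of the 89 members, 14 had no count in any library, which at this depth allows up to 3 counts per library, and 63 had fewer than 60 counts over the 6 libraries together. The 14 genes at 0 included 8 protein-coding genes, of which 6 overlap another gene model, as do 44 of all 89 members. Reads from genes that overlap may have been left unassigned, which was not tested. Only 28 members passed the filter on low counts and were tested, and these had 53 to 1525 counts over the 6 libraries. In contrast, the 16 replication-independent histone variants, most of whose mRNAs carry a poly(A) tail, summed to 1786 ± 64.4 CPM in WT and 1783 ± 49.3 CPM in S6K1-/- libraries, against 74.2 ± 1.13 and 67.8 ± 0.511 CPM for all 89 members.

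Levels between genes were compared per kilobase of annotated exonic length. On this scale (CPM per kilobase) the highest members were the pseudogenes HIST2H2BC, at 19.2 in WT and 17.9 in S6K1-/- libraries, and HIST2H2BD, at 17.1 and 16.0. These neighbours on chromosome 1 are near-identical copies. HIST2H2BD shares 94.4% of its 100-base words with HIST2H2BC, and HIST2H2BC shares 77.3% of its own with another member, so the division of reads between them is uncertain. The highest protein-coding members, ordered by their mean over both groups, were HIST1H2BH at 9.48 and 11.8 CPM per kilobase, HIST1H2BK at 6.42 and 6.74, HIST1H1C at 5.82 and 4.94, HIST1H2AG at 4.87 and 5.13, HIST1H4I at 5.02 and 3.89, HIST1H2AC at 4.54 and 2.21 and HIST3H2A at 3.49 and 3.18. From HIST1H1C on, the order differed between WT and S6K1-/- libraries. For comparison, H2AFZ and H3F3A, the highest of the variant genes on this scale, were at 157 and 112 CPM per kilobase in WT libraries. H1FX was at 88.7. Other variants lay in the range of the members, such as H2AFV at 13.2, CENPA at 11.6, H2AFY2 at 3.20 and H1FOO at 0.

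Members with an annotated end past the stem-loop had more counts, with a median of 113 counts over the 6 libraries against 20 for members whose ends all lie near it. They are also longer, with a median exonic length of 1878 against 494 bases, and per kilobase the medians were 0.328 and 0.253 CPM. The plot of levels by annotated 3′ end shows both scales. Of the 17 members with a distant end 13 were tested, and of the 49 others 10.

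**Figure D1:**
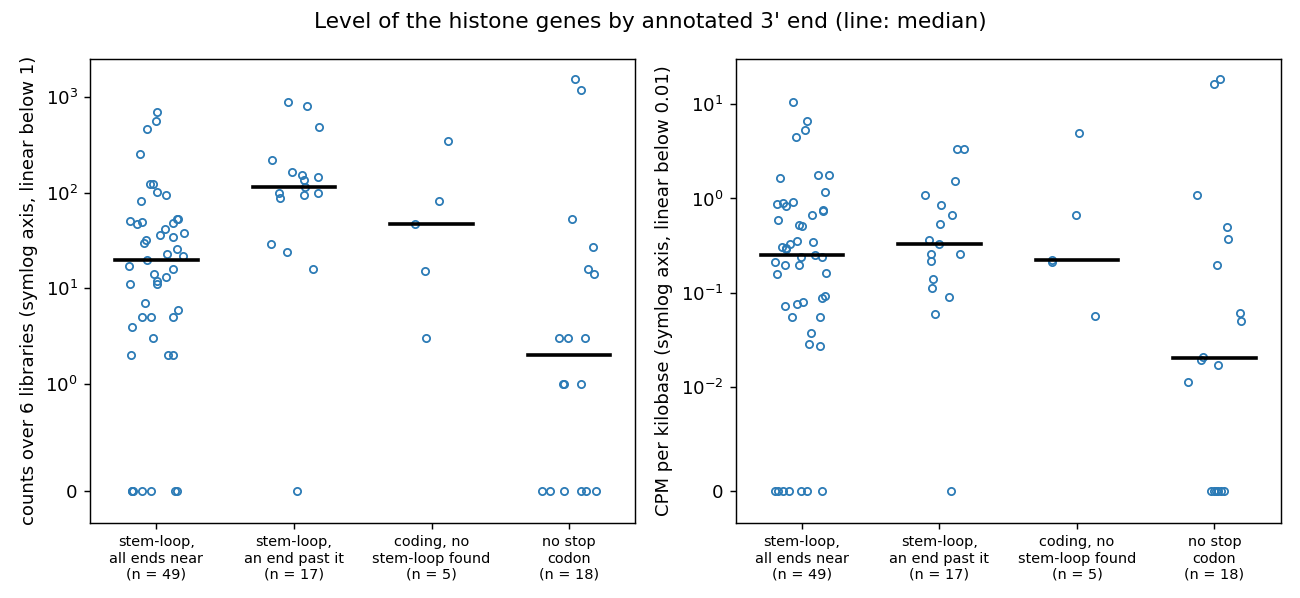
Counts over the 6 libraries (left, symmetric log axis) and CPM per kilobase of exonic length (right, symmetric log axis) of each of the 89 members, grouped by stem-loop and annotated 3′ end; each point is a gene and each line a group median. The 17 members with an end past the stem-loop have a median of 113 counts against 20 for the 49 members whose ends lie near it, and the difference is small per kilobase (0.328 against 0.253).

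Among the 28 members tested, 1 was lower and 0 were higher in S6K1-/- libraries at an adjusted p under 0.001 (edgeR quasi-likelihood test, Benjamini-Hochberg over 19521 genes), against 2.54% of all genes tested that were lower and 1.42% that were higher. The count was also 1 lower and 0 higher at an adjusted p under 0.05, where the shares of all genes were 8.31% and 5.47%. At an unadjusted p under 0.05 edgeR gave 3 lower and 1 higher, against 14.5% and 11.8% of all genes tested. The DESeq2 Wald test, run on the 75 members with any count, gave 1 lower and 1 higher at an unadjusted p under 0.05, against 5.18% and 5.01% of 37732 genes. Of the 47 members with an adjusted p in that test 1 was lower and 0 were higher, both at 0.05 (4.22% and 3.33% of 23101 genes) and at 0.001 (1.98% and 1.41%). In terms of library values, 5 of the 28 tested members had all 3 S6K1-/- libraries below all 3 WT libraries and 1 had all above, against 16.7% and 14.0% of all genes tested. The 5 were HIST1H2AC, HIST1H2BJ, HIST1H4I, HIST1H2BN and HIST1H3E, and the 1 was HIST1H2BH. The median log2 fold change of the 28 was -0.10, and 17 of them lay below 0, beside a median of -0.0024 with 9879 of 19521 below 0 for all genes tested. Their median SE was 0.262, against 0.0828 for all genes tested, so a member needed a larger change than a typical gene to pass the test. Fewer cells in S phase and less histone RNA per cell cannot be told apart in bulk libraries.

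**Figure D2:**
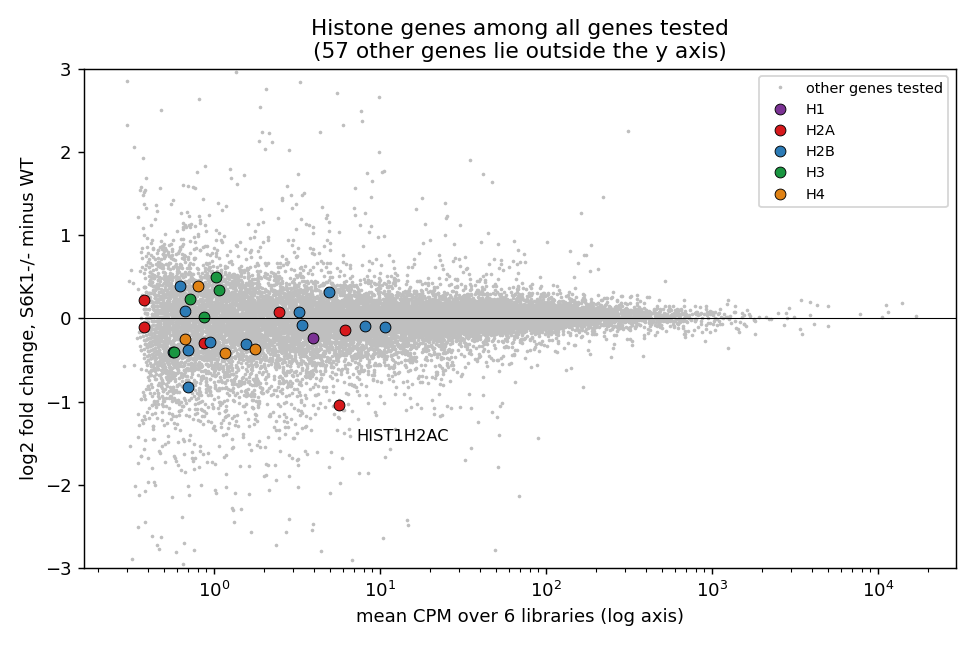
Log2 fold change (S6K1-/- minus WT, y axis cut at 3 in each direction) against mean CPM over the 6 libraries (log axis) for all genes tested, with the 28 tested members coloured by class. The members sit at the low end of the expression range and HIST1H2AC, at -1.04, lies below the other members; 57 other genes lie outside the y axis.

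HIST1H2AC (H2AC6, chr6:26124145-26139116, + strand), which encodes a core histone H2A and is one of the members known to make polyadenylated mRNA, was the member that fell. It had 185, 191 and 171 counts in WT libraries and 79, 87 and 89 in S6K1-/- libraries. The groups lay far apart, with the highest S6K1-/- library below the lowest WT library. Its level was 7.57 ± 0.205 CPM in WT and 3.69 ± 0.366 CPM in S6K1-/- libraries (SD over 3 libraries). The log2 fold change was -1.04 (SE 0.108, edgeR adjusted p = 8.33e-06). The 12 alternatives to the fit gave log2 fold changes from -1.11 to -0.97 and adjusted p from 5.76e-15 to 8.92e-05. A longer noncoding gene model overlaps HIST1H2AC on the same strand, and the counts do not separate the spliced, extended transcripts from the one that ends at the stem-loop.

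The promoter of HIST1H2AC lies between it and HIST1H2BC (H2BC4), an H2B gene that starts 246 bases away on the opposite strand. The 250 bases before the RefSeq start of HIST1H2AC are shown because the genes of this pair, which share this stretch, gave different values (chr6:26123922-26124171, GRCh38.p14, + strand). Capitals mark the octamer ATTTGCAT, which POU2F1 (OCT1) binds in H2B promoters, the CCAAT box and the TATA box TATAAA, each searched on both strands.
HIST1H2AC promoter: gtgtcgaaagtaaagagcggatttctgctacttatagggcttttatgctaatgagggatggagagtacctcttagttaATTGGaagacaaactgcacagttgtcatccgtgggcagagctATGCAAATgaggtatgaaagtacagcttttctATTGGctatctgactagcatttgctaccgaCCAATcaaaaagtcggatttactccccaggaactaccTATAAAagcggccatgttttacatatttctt
HIST1H2BC had 12, 11 and 16 counts in WT and 20, 13 and 16 in S6K1-/- libraries. Its groups overlapped, and its log2 fold change was 0.39 (SE 0.301, edgeR adjusted p = 0.462), while HIST1H2AC on the other side of the same stretch was at -1.04. HIST1H2BC overlaps HFE and HIST1H4C on the opposite strand, and whether the counting used strand is not given in the sources used here.

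Among the genes within 200000 bases of HIST1H2AC that are not histone genes, 2 were tested. TRIM38 had 161, 185 and 157 counts in WT and 123, 134 and 128 in S6K1-/- libraries, with a log2 fold change of -0.32 (SE 0.101, edgeR adjusted p = 0.0462). HFE was at -0.19 (SE 0.171, edgeR adjusted p = 0.544). Across the whole stretch of chromosome 6 that holds 66 members (chr6:25723397-27893891), 18 other genes were tested and 1 was lower at an adjusted p under 0.001, beside 2.54% of all genes tested. This was the noncoding gene HCG11, which was named after its values were seen. HCG11 had 693, 688 and 649 counts in WT and 484, 490 and 484 in S6K1-/- libraries (log2 fold change -0.42, SE 0.0590, edgeR adjusted p = 1.70e-04). Its groups did not overlap.

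Head-to-head pairs such as HIST1H2AC and HIST1H2BC are common among these genes. RefSeq starts on opposite strands within 1000 bases of each other gave 13 pairs, 11 of them an H2A with an H2B gene. HIST1H3D and HIST1H2AD have the same RefSeq start and both pair with HIST1H2BF, so the pairs rest on 12 distinct pairs of starts. Their starts lay 194 to 979 bases apart, and in 5 pairs both genes were tested. In HIST1H2BJ and HIST1H2AG the log2 fold changes were -0.83 and 0.08, in HIST1H2BG and HIST1H2AE -0.40 and -0.10, in HIST2H2BE and HIST2H2AC -0.08 and -0.29, and in HIST3H2A and HIST3H2BB -0.14 and -0.38. Apart from HIST1H2AC, no gene of these 5 pairs passed the test.

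The same motif search was run over the promoters of 66 of the 71 protein-coding members, and the 5 others had no entry in the promoter table. It separated the classes. The CCAAT box was present in all 6 H1, all 16 H2A, all 18 H2B and all 13 H3 promoters but in 3 of 13 H4 promoters, against 32% of 35116 RefSeq promoters of the same length. The octamer was found in 11 of 16 H2A and 14 of 18 H2B promoters, in 1 of 13 H3 promoters and in 0 of the H1 and H4 promoters, against 1.63% of all promoters. The H3 promoter was that of HIST1H3D, whose window is the same as that of HIST1H2AD. Since an H2A and an H2B gene of a pair also share their promoter, these counts are not independent. TATAAA was found in 50% to 76.9% of the promoters of each class, against 10.7% of all.

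The H2A class held 6 tested members. HIST1H2AC fell, and the other 5 did not pass the test. HIST3H2A (H2AC25), the H2A gene of the small cluster on the long arm of chromosome 1, had 157, 176 and 134 counts in WT and 139, 132 and 136 in S6K1-/- libraries. Its groups overlapped and the log2 fold change was -0.14 (SE 0.108, edgeR adjusted p = 0.475). HIST1H2AG (H2AC11) had 65, 46 and 62 counts in WT and 54, 63 and 58 in S6K1-/- libraries, with a log2 fold change of 0.08 (SE 0.171, edgeR adjusted p = 0.831). The summed level of the class was 19.4 ± 0.135 CPM in WT and 14.97 ± 1.10 CPM in S6K1-/- libraries, a ratio of 0.772. Without HIST1H2AC the sums were 11.8 ± 0.330 and 11.3 ± 0.759 CPM and the ratio was 0.953. The lower sum of the H2A class thus rested mainly on this gene. Over all 89 members the sum was lower by 6.36 CPM, and HIST1H2AC accounted for 60.9% of that difference. Its share of the members' counts was 10.2% in WT and 5.44% in S6K1-/- libraries. Without HIST1H2AC the members summed to 66.6 ± 0.941 CPM in WT and 64.15 ± 0.152 CPM in S6K1-/- libraries. That ratio was 0.963, and the groups still did not overlap.

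**Figure D3:**
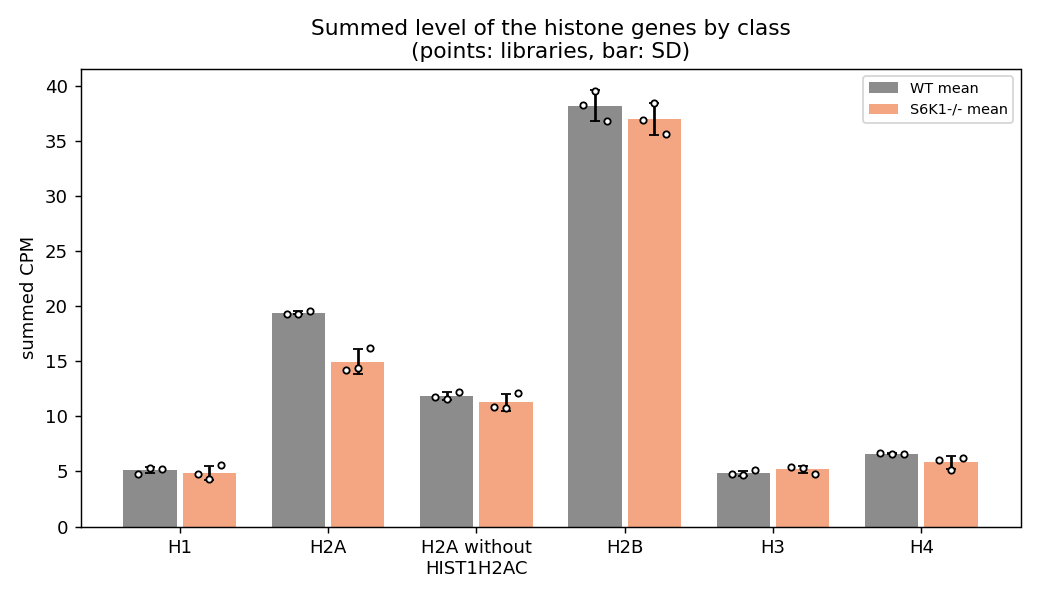
Summed CPM of the members of each class in WT (grey) and S6K1-/- (orange) libraries; bars are means, error bars the SD and points the 3 libraries of each group. The H2A sum is 19.4 CPM in WT and 14.97 in S6K1-/- libraries, and without HIST1H2AC it is 11.8 and 11.3.

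The H2B class held 12 tested members, none of which passed the test (edgeR). In 2 of the 12 all S6K1-/- libraries lay below WT and in 1 all above, beside 16.7% and 14.0% of all genes tested. HIST1H2BJ (H2BC11) had 24, 22 and 19 counts in WT and 12, 15 and 8 in S6K1-/- libraries. These groups did not overlap, and the log2 fold change of -0.83 (SE 0.278) had an edgeR adjusted p of 0.0634. HIST1H2BH (H2BC9), a gene with a single annotated transcript that ends at the stem-loop, had 98, 124 and 95 counts in WT and 141, 122 and 115 in S6K1-/- libraries. As CPM its S6K1-/- libraries were all above WT, at 5.45 ± 0.480 against 4.38 ± 0.570 CPM, with a log2 fold change of 0.31 (SE 0.124, edgeR adjusted p = 0.113). HIST1H2BN (H2BC15) had 42, 42 and 40 counts in WT and 28, 33 and 35 in S6K1-/- libraries, a log2 fold change of -0.31 (SE 0.185, edgeR adjusted p = 0.325). The summed H2B level was 38.2 ± 1.38 CPM in WT and 37.0 ± 1.43 CPM in S6K1-/- libraries, a ratio of 0.968. Without the pseudogenes the H2B sum was 18.4 ± 0.966 CPM in WT and 18.5 ± 0.421 CPM in S6K1-/- libraries, a ratio of 1.004, beside 19.0 ± 0.0505 and 14.6 ± 1.01 CPM for the H2A class without its pseudogenes.

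The pseudogene copies HIST2H2BC and HIST2H2BD supplied much of that sum. HIST2H2BC had 274, 269 and 262 counts in WT and 237, 267 and 216 in S6K1-/- libraries, and HIST2H2BD had 199, 224 and 188 against 178, 210 and 161. Counted as 1 gene they gave 473, 493 and 450 against 415, 477 and 377 counts, with overlapping groups and a log2 fold change of -0.10 (SE 0.0687, edgeR adjusted p = 0.399). In all, 13 members shared at least 50% of their 100-base words with another member, and the 7 sets of copies overlapped between groups when their counts were summed.

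The linker histone genes were nearly absent apart from HIST1H1C (H1-2), which had 97, 106 and 104 counts in WT and 86, 75 and 88 in S6K1-/- libraries. Its CPM overlapped between groups, with a log2 fold change of -0.24 (SE 0.130, edgeR adjusted p = 0.264). HIST1H1E (H1-4) had 9, 3 and 4 counts in WT and 6, 5 and 9 in S6K1-/- libraries, too few to be tested. Its ratio, S6K1-/- over WT, was 1.3, with an exact 95% interval of 0.642 to 2.69 for counting error only. HIST1H1D (H1-3) had 4, 4 and 2 against 4, 4 and 8 counts. HIST1H1A (H1-1), a linker histone known from thymus, spleen and testis, was too low for the filter. It had 2, 4 and 1 counts in WT and 8, 15 and 8 in S6K1-/- libraries, and the groups did not overlap. The ratio of its levels, S6K1-/- over WT, was 4.62, with an exact 95% interval of 2 to 12.4 that covers counting error only. With no filter on low counts edgeR gave a log2 fold change of 2.15 (SE 0.551, adjusted p = 0.00212), past 0.05 and not past 0.001. In that fit 1 of 75 members was lower (HIST1H2AC) and 1 higher (HIST1H1A) at an adjusted p under 0.05, against 4.99% and 3.54% of 37733 genes. The DESeq2 Wald test gave an adjusted p of 0.0932. Its annotated transcript is single and ends 5 bases after the stem-loop. The testis histone genes HIST1H1T, HIST1H2AA and HIST1H2BA had no count in any library.

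Of the H3 genes 5 were tested. HIST1H3H (H3C10) had 26, 24 and 18 counts in WT and 30, 30 and 23 in S6K1-/- libraries, with a log2 fold change of 0.35 (SE 0.222, edgeR adjusted p = 0.356). HIST2H3PS2 (H3-7) had 19, 13 and 29 against 28, 26 and 29 counts, a log2 fold change of 0.50 (SE 0.278, edgeR adjusted p = 0.276) and the highest of the 28, which was 0.25 without WT replicate 2 and 0.88 without WT replicate 3. HIST1H3G (H3C8) was at 0.01 (SE 0.260). All 3 overlapped between groups, as did HIST1H3J (H3C12), at 0.23 (SE 0.288). HIST1H3E (H3C6) went the other way, with 15, 19 and 13 counts in WT and 11, 12 and 11 in S6K1-/- libraries. Its groups did not overlap, and its log2 fold change was -0.40 (SE 0.290, edgeR adjusted p = 0.449). The H3 sum was 4.85 ± 0.236 CPM in WT and 5.20 ± 0.336 CPM in S6K1-/- libraries.

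Of the H4 genes 4 were tested. HIST1H4I (H4C9) had 48, 51 and 45 counts in WT and 37, 37 and 33 in S6K1-/- libraries. Its groups did not overlap, and the log2 fold change was -0.37 (SE 0.166, edgeR adjusted p = 0.178). HIST1H4H (H4C8) had 33, 38 and 25 counts in WT and 25, 19 and 25 in S6K1-/- libraries, a log2 fold change of -0.41 (SE 0.229, edgeR adjusted p = 0.280). HIST4H4 (H4C16), the lone member on chromosome 12, had 13, 13 and 24 counts in WT and 18, 24 and 21 in S6K1-/- libraries, a log2 fold change of 0.39 (SE 0.295, edgeR adjusted p = 0.448) that was 0.24 without WT replicate 1, 0.23 without WT replicate 2 and 0.78 without WT replicate 3. HIST2H4A (H4C14), too low to be tested, had 8, 4 and 1 counts in WT and 3, 0 and 0 in S6K1-/- libraries, a ratio of summed counts per depth of 0.241 with an exact 95% interval of 0.044 to 0.876 for counting error only. Its groups overlapped, and its reads may be divided with the near-identical HIST2H4B, at 5, 4 and 3 against 3, 6 and 3 counts. With no filter on low counts HIST2H4A had an edgeR adjusted p of 0.198. HIST1H4E (H4C5), also untested, had 9, 9 and 16 against 5, 6 and 8 counts. The same ratio was 0.583 for HIST1H4E, with an interval of 0.314 to 1.05. The H4 sum was 6.63 ± 0.0531 CPM in WT and 5.82 ± 0.561 CPM in S6K1-/- libraries, a ratio of 0.877 with no overlap between groups.

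**Figure D4:**
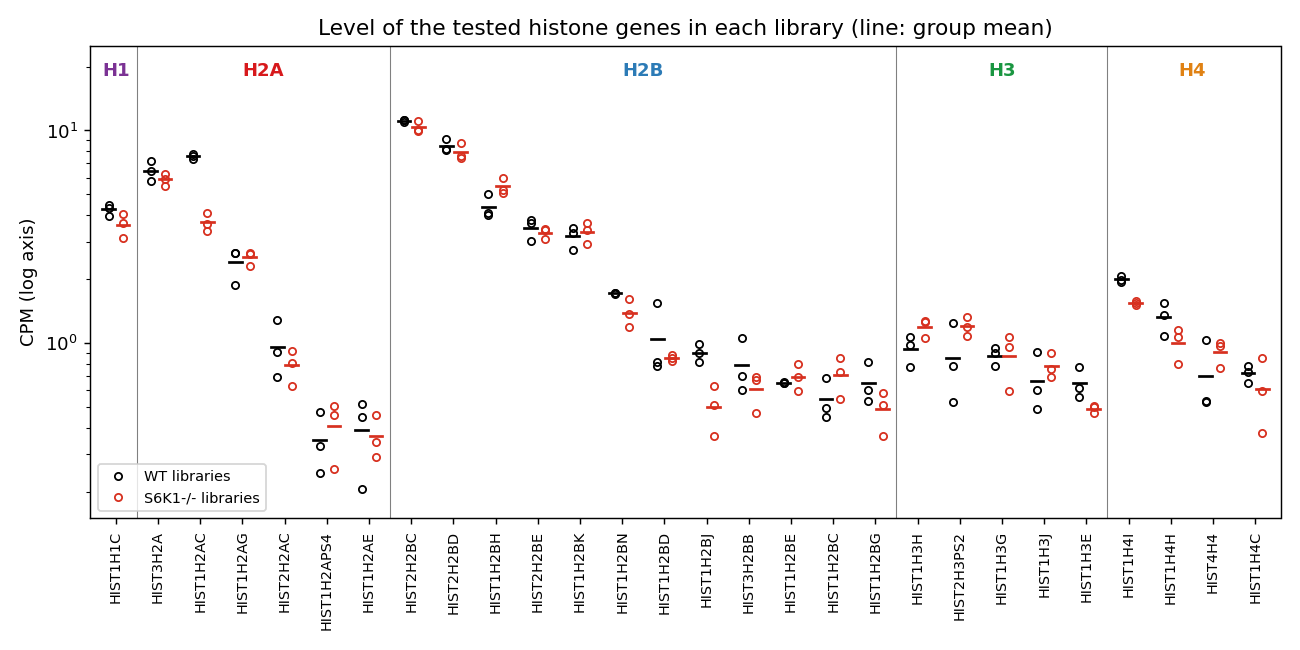
CPM (log axis) of the 28 tested members in each of the 3 WT (black) and 3 S6K1-/- (red) libraries, grouped by class and ordered by mean level; short lines are group means. HIST1H2AC stands at 7.57 CPM in WT and 3.69 CPM in S6K1-/- libraries, and most other members overlap between groups.

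**Figure D5:**
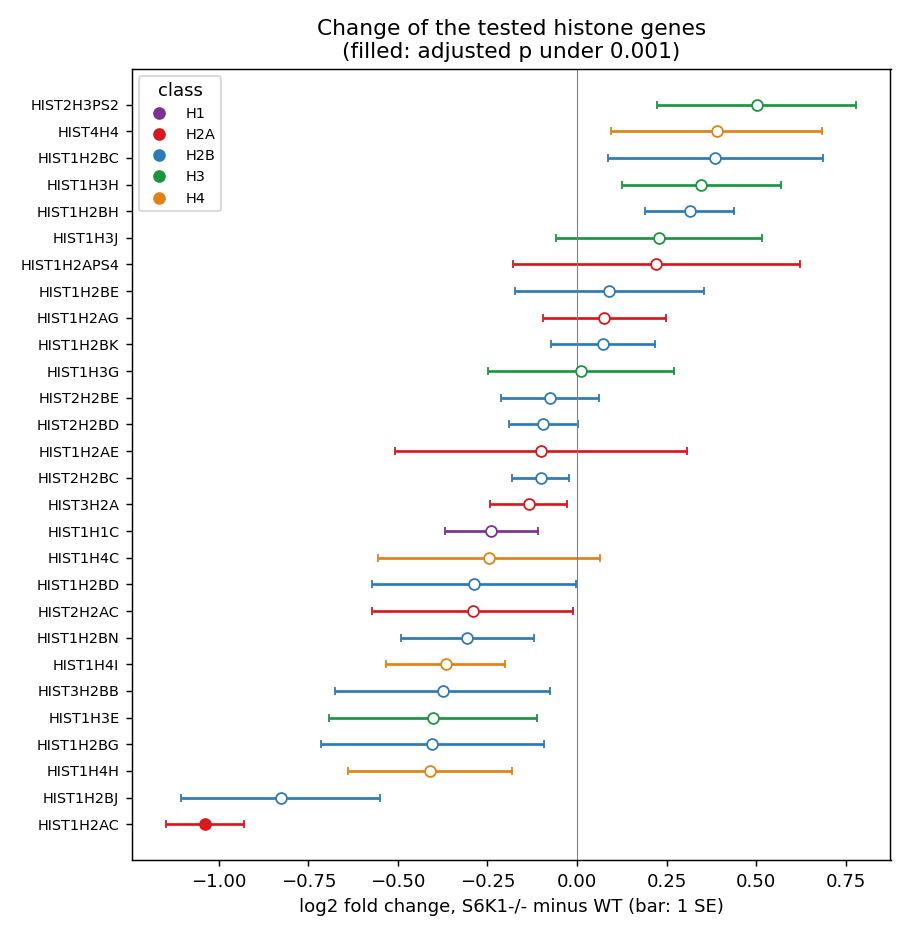
Log2 fold change (S6K1-/- minus WT) with its SE for each of the 28 tested members, coloured by class; the filled point passed an adjusted p under 0.001. Values run from -1.04 (HIST1H2AC) to 0.50 (HIST2H3PS2), and 17 of the 28 lie below 0.

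The 6 members with described polyadenylated transcripts were examined as a group, because the libraries were made by poly(A) capture. They were all tested, 1 was lower and 0 were higher at an adjusted p under 0.001 (edgeR, beside 2.54% and 1.42% of all genes tested), and their median log2 fold change was -0.16 beside -0.0024 for all genes. HIST1H2AC and HIST1H1C are described above. HIST1H2BK (H2BC12) had 85, 81 and 64 counts in WT and 80, 88 and 64 in S6K1-/- libraries. HIST2H2BE (H2BC21) had 92, 90 and 70 against 80, 74 and 75 counts, and HIST1H2BD (H2BC5) 19, 20 and 36 against 20, 21 and 18. These 3 overlapped between groups, at log2 fold changes of 0.07 (SE 0.144), -0.08 (SE 0.136) and -0.29 (SE 0.284). HIST1H2BD was at 0.10 without WT replicate 3, and HIST1H2BK changed sign without WT replicate 3 or S6K1-/- replicate 2. The sum over the 6 genes was 20.1 ± 0.228 CPM in WT and 15.5 ± 0.563 CPM in S6K1-/- libraries, a ratio of 0.773, which was 0.945 without HIST1H2AC. For the 17 members with an annotated end past the stem-loop the ratio was 0.812, and 0.935 without HIST1H2AC. For the 49 members whose ends all lie near the stem-loop the ratio was 1.01, with 22.7 ± 0.822 CPM in WT and 22.9 ± 1.09 CPM in S6K1-/- libraries.

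The genes that act on histone mRNA were measured far more deeply than the histone genes. The shares of all genes tested given above for edgeR apply to each of the lists that follow, namely 2.54% lower and 1.42% higher at an adjusted p under 0.001 and 14.5% and 11.8% at an unadjusted p under 0.05. Of the 15 genes of histone gene transcription, 0 were lower and 0 higher at an adjusted p under 0.001 (edgeR, with 0 and 4 at an unadjusted p under 0.05), and the DESeq2 Wald test gave 1 higher. NPAT, the coactivator of histone genes at the start of S phase, was at 31.0 ± 1.49 CPM in WT and 31.4 ± 0.912 CPM in S6K1-/- libraries. POU2F1, which binds the octamer, was at 127 ± 3.61 and 144 ± 3.90 CPM, with a log2 fold change of 0.19 (SE 0.0404, edgeR adjusted p = 0.00505). It passed 0.001 in the DESeq2 Wald test, at an adjusted p of 8.82e-04. CASP8AP2, a partner of NPAT at histone gene loci, was at 0.17 (edgeR adjusted p = 0.0843) and GON4L at 0.15 (edgeR adjusted p = 0.0895).

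Of the 19 genes of histone mRNA 3′ end formation, 0 passed 0.001 in either direction (edgeR, with 0 lower and 4 higher at an unadjusted p under 0.05, and 0 in the DESeq2 Wald test). SLBP was at 52.1 ± 3.86 CPM in WT and 52.0 ± 3.67 CPM in S6K1-/- libraries, a log2 fold change of -0.0046 (SE 0.0611). The nearest to a call were SNRPD3 (0.24, SE 0.0659, edgeR adjusted p = 0.0224), SYMPK (0.13, SE 0.0384, edgeR adjusted p = 0.0364) and NCBP2 (0.13, SE 0.0381, edgeR adjusted p = 0.0374), a shared snRNP protein, the scaffold symplekin and a subunit of the cap-binding complex. Of the 14 genes of histone mRNA translation and decay 0 passed 0.001 (edgeR, with 1 lower and 2 higher at an unadjusted p under 0.05, and 0 in the DESeq2 Wald test). DBR1, placed in this list but known for debranching intron lariats, was at 0.28 (edgeR adjusted p = 0.0153). ATR, the checkpoint kinase that responds to stalled replication, was at -0.20 (edgeR adjusted p = 0.0238). CTIF, which takes part in the translation of histone mRNA, was at 0.16 (edgeR adjusted p = 0.0670).

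Of 29 S phase genes 0 were lower and 1 was higher at an adjusted p under 0.001 (edgeR, with 0 lower and 7 higher at an unadjusted p under 0.05, where 11.8% of all genes were higher). In 0 of the 29 all S6K1-/- libraries lay below WT and in 11 all above, beside 16.7% and 14.0% of all genes tested, and the summed level was 3650 ± 60.3 CPM in WT and 3782 ± 34.3 CPM in S6K1-/- libraries, a ratio of 1.036 with no overlap. The gene that rose was UHRF1, which maintains DNA methylation at the replication fork, from 30.7 ± 0.80 to 40.2 ± 1.41 CPM (log2 fold change 0.39, SE 0.0524, edgeR adjusted p = 1.04e-04). It missed 0.001 without S6K1-/- replicate 1 (adjusted p = 0.00133). CDC6, which loads the replicative helicase, was at 0.16 (edgeR adjusted p = 0.0118) and MCM4, a subunit of that helicase, at 0.11 (edgeR adjusted p = 0.0746). The median of the list was 0.04. Of the 19 histone chaperones tested 0 passed 0.001 (edgeR, with 0 lower and 3 higher at an unadjusted p under 0.05), and the DESeq2 Wald test gave 1 higher. ANP32E, a chaperone of H2A.Z, was at 218 ± 7.73 CPM in WT and 251 ± 5.41 CPM in S6K1-/- libraries (log2 fold change 0.20, SE 0.0406, edgeR adjusted p = 0.00376, and 6.20e-05 in the DESeq2 Wald test). RBBP4, the chaperone subunit of several chromatin complexes, was at 0.14 (edgeR adjusted p = 0.0191) and ATRX, which deposits H3.3 with DAXX, at 0.15 (edgeR adjusted p = 0.0206).

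Of the 16 replication-independent histone variants 11 were tested, 1 was lower and 0 were higher at an adjusted p under 0.001 (edgeR, with 1 lower and 3 higher at an unadjusted p under 0.05). H1F0, the linker histone H1.0 that accumulates in cells that have left the cycle, fell from 104 ± 4.54 to 83.9 ± 1.44 CPM (log2 fold change -0.30, SE 0.0430, edgeR adjusted p = 1.63e-04). It missed 0.001 when WT replicate 3 or any 1 of the S6K1-/- libraries was left out, with adjusted p from 0.00112 to 0.00209. H2AFX, the variant phosphorylated at DNA breaks, was at 0.17 (SE 0.0471, edgeR adjusted p = 0.0242), and the macroH2A gene H2AFY2 at 0.18 (SE 0.0569, edgeR adjusted p = 0.0535). H3F3A and H3F3B, which both encode H3.3, were at -0.0055 (SE 0.0433) and 0.0015 (SE 0.0410), and H2AFZ was at -0.04 (SE 0.0515).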

How the data were processed

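Total RNA of H7 hESCs was made into poly(A)-selected, stranded libraries (TruSeq Stranded mRNA), 3 WT and 3 S6K1-/-. Per the labels and methods, the authors trimmed reads with Trim Galore 0.6.5, aligned them to GRCh38 with Bowtie2 2.4.5, which does not align across splice junctions, and deposited counts per gene from featureCounts as whole numbers without normalization. The annotation release, the strand setting and the handling of reads that fit several copies are not given in the sources used here. The table of the authors' own DESeq2 comparison (fold changes and p-values) was not used.

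The counts were fitted with edgeR 4.0.16 (filterByExpr, TMM, quasi-likelihood F test, genotype only) in R 4.3.3, with Benjamini-Hochberg adjustment over 19521 genes and a call at 0.001. The SE is the log2 fold change divided by the square root of F. CPM used TMM-scaled totals. The fit was tested on simulated counts, where 146 of 194 genes given a log2 change of 1 were called, and 2 unchanged genes. Among the changed genes with fewer than 600 counts over the 6 libraries, 22 of 69 were called. DESeq2 1.42.0 (Wald test), its size factors, other filters, a replicate block and the omission of each library were the alternatives. Copies summed, sums without HIST1H2AC and sums without pseudogenes were added after seeing the data.

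All 89 older symbols were matched to current symbols through RefSeq synonyms and found in GENCODE 44, which gave positions, lengths and stop codons. Named genes were RPS6KB1, the called members, the 3 highest by CPM in each class, the members known for polyadenylated mRNA, HIST1H1A with the testis members, and of each other histone list the called genes, or the 3 with the smallest p where fewer than 3 were called. Other members and list genes named (HIST1H2BJ, HIST1H2BN and HIST1H3E, paired genes, HIST1H1D, HIST1H3J, HIST2H4A, HIST2H4B, HIST1H4E, SLBP, NPAT, H3F3A, H3F3B, H2AFZ, other variants and the stem cell, neural and germ layer markers) were added for their place in the comparison. Members and lists were chosen with earlier results of these data known.

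Libraries of a group differed by more than sampling noise (chi-square per gene 2.24 to 4.53), so none was taken as another deposited again. This does not show that they came from separate cultures. Depth was 21896698 to 24473013 counts, and the interval and floor given cover counting error only.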

Additional observations from a re-analysis of the deposited data

How the results depend on the processing

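At an adjusted p under 0.001 the counts of 1 member lower, HIST1H2AC, and 0 higher were the same under each alternative fit, and with the filter also at 0.05. With no filter and 0.05 together, HIST1H1A was also higher. Over all genes, the 496 lower and 278 higher became 982 and 591 with no filter on low counts and 1622 and 1067 at an adjusted p under 0.05, and ranged from 313 to 445 and from 175 to 235 when 1 library was left out, the lowest without S6K1-/- replicate 3 (lower) and S6K1-/- replicate 1 (higher, with 179 without S6K1-/- replicate 2). Same-numbered libraries did not deviate together (correlations of 0.044, 0.011 and 0.0428, with 2 of 3 numbers closest to their own), and the replicate block gave 423 lower and 241 higher genes and the same member. Leaving out 1 library turned the direction of 4 named members, none of them called: HIST1H2AG (-0.076 to 0.17) turned without WT replicate 2, HIST1H3G (-0.15 to 0.22) when WT replicate 1 or either of S6K1-/- replicates 1 and 2 was omitted, HIST1H2BD (-0.45 to 0.10) without WT replicate 3, and HIST1H2BK (-0.012 to 0.16) without WT replicate 3 or S6K1-/- replicate 2. H1F0 missed 0.001 without WT replicate 3 or any 1 of the S6K1-/- libraries (edgeR adjusted p from 0.00112 to 0.00209), and UHRF1 without S6K1-/- replicate 1 (0.00133), while POU2F1 and ANP32E passed it with the DESeq2 Wald test and with no filter, and the chaperone NAP1L4 (0.36) with no filter. Of 431 such values over the named genes and alternatives 415 kept their direction and their side of the threshold. Omitting 1 library also moved values without turning them, for HIST1H2BC from 0.23 to 0.59 and for HIST1H1C from -0.32 to -0.14. HIST3H2A ran from -0.20 to -0.054, HIST1H4H from -0.53 to -0.26, HIST2H2BE from -0.16 to -0.0048 and GON4L from 0.081 to 0.20. The cause was not tested. Without the members known for polyadenylated mRNA the ratio of the summed levels was 0.967 for all members, 0.953 for H2A and 1.45 for H1, the last from few counts. Without pseudogenes it was 1.004 for H2B, against 0.968 with them, and in each class the shift from leaving them out was smaller than the spread between libraries.

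Depth limits most statements on these genes. Of 89 members 61 were not tested, and those had a median of 7 counts over the 6 libraries.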
